A study of Homo sapiens with 10 samples.

Results

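The 40 genes described here encode the enzymes of glycolysis and of the pentose phosphate pathway, the transporters that move glucose and lactate, and the factors and targets of the hypoxia response. They were chosen by symbol, with earlier results of these data known. All 40 of 40 were found among the 20591 genes of the table, each in 1 row. Their RNA was measured by bulk RNA sequencing in 10 libraries, 1 library for each of 4 pure lines and 1 for each of 6 mixtures of those lines. All 4 are established human lines: HL60 derives from a promyelocytic leukaemia, K562 from the blast crisis of a chronic myeloid leukaemia with erythroid features, SUDHL4 from a B cell lymphoma of germinal-centre type, and THP1 from a monocytic leukaemia. Every library was labelled wild type, untreated and day 0, and the cells had grown in RPMI with 10% serum under CO2. No group was kept in hypoxia per the labels. The ratios of the mixtures and the kit used for each library (a low-input stranded total RNA kit or a stranded mRNA kit) are not given in the labels. With 1 library a group there is no replicate error, so differences carry no p-value, and intervals are exact 95% Poisson intervals of the reads that cover counting error only.

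Glycolysis splits glucose into pyruvate in the cytosol, and lactate dehydrogenase turns pyruvate into lactate that leaves the cell through proton-coupled transporters. The pentose phosphate pathway branches off after the hexokinase step and yields NADPH and ribose, which proliferating cells use for lipid and nucleotide synthesis. HIF transcription factors raise many of these genes when oxygen is low, while prolyl hydroxylases mark the HIF alpha subunits for destruction when oxygen is present. Several steps are served by isozymes from separate genes, and blood lineages are known to differ in which isozyme they use.

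Levels are in normalised CPM, reads per 1000000 after the authors' rescaling between libraries. Libraries held between 24985570 and 36607612 reads. K562, SUDHL4 and THP1 carried most markers of their labels. Of 11 listed erythroid markers, 10 were enriched in K562 as defined below. In SUDHL4, 8 of 8 B cell markers were enriched, and in THP1, 7 of 9 monocyte markers. Of 7 granulocyte-lineage markers listed for HL60, 3 were enriched there (MPO, CEBPE and CLC) and 3 others in THP1 (AZU1, ELANE and CTSG). The remaining marker, PRTN3, was also higher in THP1 (1489) than in HL60 (740). Among the few stromal and endothelial markers, DCN was at 69.7 in SUDHL4 and COL1A2 at 21.9 in K562, and their part in the values below was not tested.

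A gene counted as enriched in 1 line if its level there reached 5 normalised CPM and lay 2 or more log2 units above every other pure line on the log2(value + 1) scale, about 4-fold. It counted as depleted where the other 3 lines all had at least 5 and it lay at least 2 log2 units below the lowest of them. By these rules 5 of 40 genes (12.5%) were enriched in a line, against 8.06% of all 20591 genes, and 3 of 40 (7.5%) were depleted, against 3.59%. Among genes with at least 5 normalised CPM in a line, the enriched share was 13.5% of 37 members and 14.2% of all 11717 genes. Among genes with at least 5 in 3 lines, the depleted share was 9.09% of 33 members and 8.7% of all 8506 genes. Both shares of the members were near those of other expressed genes. With a 2-fold margin 10 members were enriched and 9 depleted, where 16.2% and 9.12% of all genes were. Among the expressed genes just defined, these were 10 of 37 members and 3341 of 11717 genes enriched. The depleted ones were 9 of 33 members and 1878 of 8506 genes. K562 held 3 of the enriched genes (HK1, SLC2A3 and EGLN3), SUDHL4 held PFKM, THP1 held NDRG1 and HL60 held none, where 2.62%, 2.03%, 2.86% and 0.554% of all genes were enriched. The depleted genes were HK1 in HL60 (0.491% of all genes), PFKM in THP1 (0.257%) and PDK3 in K562 (1.34%), with none in SUDHL4 (1.51%).

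**Figure D1:**
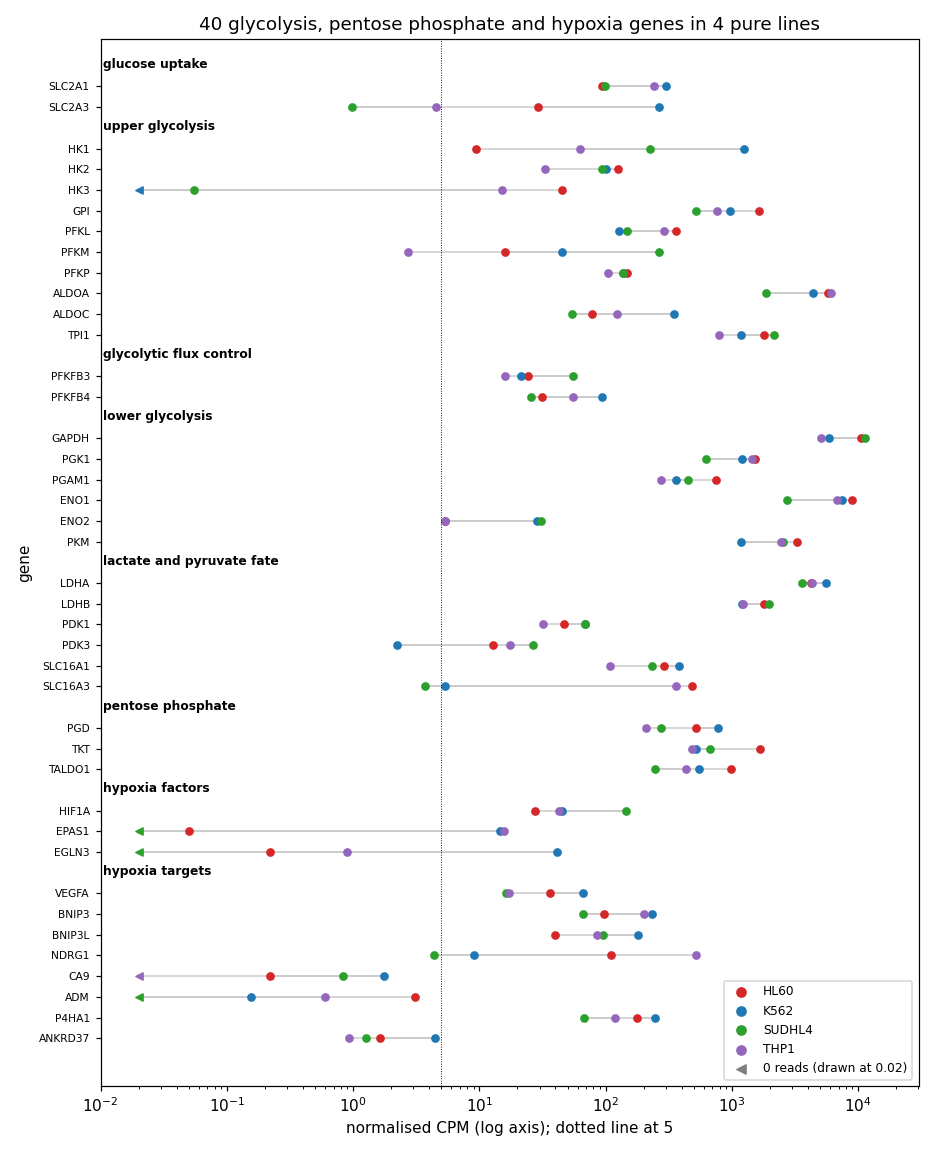
Level of each of the 40 genes (rows, grouped by role) in the 4 pure lines (coloured points, 1 library each), in normalised CPM on a log axis, with triangles for 0 reads. The 16 genes at 100 or more in every line each lie within 4-fold between lines, as do 93.8% of all 1011 genes at that level, while HK1, HK3, PFKM, SLC2A3, SLC16A3, NDRG1, EPAS1 and EGLN3 spread over much wider ranges.

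Summed over the glycolytic enzymes, RNA was most abundant in HL60. The 16 glycolytic enzyme genes together with LDHA and LDHB, 18 genes in all, took 3.69% of all reads in HL60, 3.20% in K562, 3.02% in THP1 and 2.87% in SUDHL4. These shares do not depend on the scaling between libraries. They rest largely on a few abundant genes: in HL60 GAPDH took 0.950% of reads, ENO1 0.799%, ALDOA 0.521% and LDHA 0.381%. HL60 was the highest line for 13 of the 40 genes, K562 for 15, SUDHL4 for 9 and THP1 for 3, while SUDHL4 was the lowest line for 17 and THP1 for 13. The same counts over all genes are not given here, so these have no background to be read against. With 3 other scalings the highest line changed for 4 genes (PFKP, PGK1, PDK1 and BNIP3) and the lowest for 2 (GAPDH and TKT). On the log2 scale, each line was also set against the average of the remaining 3. The median of these differences, over the 37 members with at least 5 normalised CPM in a line, was 0.44 in HL60, 0.43 in K562, −0.31 in THP1 and −0.69 in SUDHL4. Over all 11717 such genes the medians were 0.08, 0.07, −0.16 and −0.10. The difference was above 0 for 23 of the 37 members in HL60, 24 in K562, 14 in THP1 and 16 in SUDHL4. Of all such genes, 54.0%, 52.9%, 43.5% and 45.6% were above 0 in these lines. The sign of each member median was the same with all 4 scalings. Among the 16 members with at least 100 normalised CPM in every line, the median ratio of the highest to the lowest line was 2.78, and 3 were under 2-fold. Over all 1011 genes at that level the median was 2.01 and 49.4% were under 2-fold.

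Glucose enters through facilitative transporters. SLC2A1, the basal transporter GLUT1, had a 95% interval of 294 to 306 in K562 and was at 92.8 in HL60, 98.1 in SUDHL4 and 241 in THP1. SLC2A3, the high-affinity transporter GLUT3 (chromosome 12, 7919230 to 7936275 in GRCh38, minus strand), was at 264 in K562 (95% interval 258 to 269), 28.98 in HL60, 4.51 in THP1 and 0.973 in SUDHL4. K562 was high for both, and only K562 and HL60 had SLC2A3 above 5 normalised CPM. Its K562 level was 9.10-fold that of HL60. Per kilobase of the longest annotated transcript, SLC2A3 made up 41.4% of the measured SLC2A1 to SLC2A4 and SLC2A14 total in K562, 20.6% in HL60, 1.52% in THP1 and 0.815% in SUDHL4. SLC2A14, a near-identical copy of SLC2A3 whose reads are uncertain, was at 9.93 in K562.

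Hexokinases trap glucose inside the cell by phosphorylating it. HK1, the ubiquitous form (chromosome 10, 69269984 to 69401884, plus strand), was at 1241 in K562 (95% interval 1230 to 1253), 225 in SUDHL4, 63.2 in THP1 and 9.47 in HL60 (8.38 to 10.6). The K562 level was 5.51-fold that of SUDHL4 and 131-fold that of HL60. HK2, the inducible form, varied much less, with 125 in HL60, 101 in K562, 93.6 in SUDHL4 and 33.4 in THP1. HK3, a form known from granulocytes and monocytes, was at 45.1 in HL60 and 15.02 in THP1, with 1 read in SUDHL4 and 0 reads in K562, where 3 reads would be 0.0988. It was thus measured in HL60 and THP1 and at most at a single read elsewhere. Per kilobase, HK1 made up 94.7% of the hexokinase total in K562, 77.6% in SUDHL4, 59.7% in THP1 and 6.11% in HL60. In HL60 the total was split between HK2 (56.0%) and HK3 (37.9%). HL60 was therefore the only pure line not led by HK1, also with exon-union lengths and without length correction.

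Phosphofructokinase catalyses the committed step, as tetramers built from liver (PFKL), muscle (PFKM) and platelet (PFKP) subunits. PFKM (chromosome 12, 48105139 to 48146404, plus strand) was at 265 in SUDHL4, 45.2 in K562, 16.04 in HL60 and 2.70 in THP1 (2.16 to 3.31). SUDHL4 was 5.85-fold above K562 and 97.8-fold above THP1. The depletion of PFKM in THP1 was not called with housekeeping scaling. PFKL was at 359 in HL60, 287 in THP1, 147 in SUDHL4 and 129 in K562. PFKP was the most even of all members at 5 or more, between 105 (THP1) and 147 (HL60), or 1.41-fold. Per kilobase, the largest share belonged to PFKL in HL60 (50.8%) and THP1 (55.4%), to PFKP in K562 (59.2%) and to PFKM in SUDHL4 (50.03%). The order of lead subunits was the same with the other length measures.

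The PFKFB enzymes make and break fructose 2,6-bisphosphate, the main activator of phosphofructokinase. PFKFB3 was at 55.0 in SUDHL4 and between 15.9 and 24.3 elsewhere, while PFKFB4 was at 94.2 in K562, 54.6 in THP1, 31.4 in HL60 and 25.8 in SUDHL4. SUDHL4 was the only pure line where PFKFB3 led the family, with 61.1% per kilobase against 13.8% to 37.9%. TIGAR of the wider list, which removes fructose 2,6-bisphosphate, was enriched in SUDHL4 at 40.4 against at most 5.85.

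The remaining upper enzymes were abundant in every line. GPI, which converts glucose 6-phosphate to fructose 6-phosphate, was at 1650.1 in HL60, 964 in K562, 756 in THP1 and 514 in SUDHL4. ALDOA, the main aldolase, was at 6037 in THP1, 5773 in HL60, 4377 in K562 and 1868 in SUDHL4. Both were lowest in SUDHL4. TPI1, the triose phosphate isomerase, ran the other way, with 2136 in SUDHL4, 1783 in HL60, 1174 in K562 and 784 in THP1. ALDOC, the aldolase best known from brain, was at 351 in K562, 124 in THP1, 77.6 in HL60 and 54.3 in SUDHL4, and took 9.29% of the aldolase total per kilobase in K562 against 1.69% to 3.58% elsewhere. PGM1, which links glycogen to glycolysis, was depleted in K562 (0.127, or 4 reads, against 39.9 to 170).

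In lower glycolysis HL60 was the highest line for 4 of 6 genes, and SUDHL4 was highest for 2 and lowest for 2. GAPDH, often used as a reference gene, was at 11241 in SUDHL4, 10529 in HL60, 5876 in K562 and 5107 in THP1, a 2.20-fold range. ENO1, the main enolase, was at 8850.0 in HL60, 7395 in K562, 6794 in THP1 and 2742 in SUDHL4. SUDHL4 was thus highest for GAPDH and lowest for ENO1, and the ENO1 to GAPDH ratio within a library was 0.244 there against 0.841 in HL60, 1.26 in K562 and 1.33 in THP1. PGK1, which makes ATP, was at 624 in SUDHL4 and between 1202 and 1525 elsewhere. PGAM1 was highest in HL60 (750.1) and between 276 and 446 in the other lines.

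ENO2, the neuronal enolase, was at 31.0 in SUDHL4 and 28.6 in K562 against 5.33 in THP1 and 5.31 in HL60, and took at most 1.01% of the enolase total per kilobase. PKM, the pyruvate kinase of most tissues, was at 3269 in HL60, 2559 in SUDHL4, 2451 in THP1 and 1176 in K562. In K562 the erythroid and liver gene PKLR was at 159, with 1 read in THP1 and 0 reads in HL60 and SUDHL4. PKLR made up 11.8% of the pyruvate kinase total per kilobase of the longest transcript in K562, and 26.7% with exon-union lengths. Counts per gene do not separate the M1 and M2 splice forms of PKM. Processed copies of these enzymes took few reads: rows named as copies of TPI1, GAPDH, PGK1, PKM, BNIP3 and PGD each held at most 0.434% of their parent gene's level, but reads lost to or gained from copies outside the table cannot be seen.

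Lactate dehydrogenase is a tetramer of LDHA and LDHB subunits. LDHA was at 5524 in K562, 4271 in THP1, 4216 in HL60 and 3567 in SUDHL4, a 1.55-fold range. LDHB was at 1977 in SUDHL4, 1782 in HL60, 1221 in THP1 and 1206 in K562. The 2 genes ran in opposite order between K562 and SUDHL4. The LDHA to LDHB ratio of levels, without length correction, was 4.58 in K562, 3.50 in THP1, 2.37 in HL60 and 1.80 in SUDHL4, an order that no scaling or length can change. Per kilobase of the longest transcript LDHA held 53.5% in SUDHL4, but with exon-union lengths 46.4%, so which subunit led there depended on the length used.

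Pyruvate dehydrogenase kinases inhibit the pyruvate dehydrogenase complex, which turns pyruvate into acetyl-CoA inside the mitochondrion. PDK1, a known HIF target, was at 68.6 in SUDHL4, 68.4 in K562, 46.6 in HL60 and 31.9 in THP1. PDK3 was at 26.4 in SUDHL4, 17.6 in THP1, 12.8 in HL60 and 2.24 in K562 (1.77 to 2.78), its depleted line, although that call was lost with plain CPM and with housekeeping scaling. PDK2 of the wider list was at 33.3 in SUDHL4 and 24.6 in THP1, against 0.748 in K562 and 0 reads in HL60. SUDHL4 and THP1 thus had 3 of the kinases above 5 normalised CPM, HL60 had PDK1 and PDK3, and K562 had PDK1 alone.

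Lactate leaves through the monocarboxylate transporters. SLC16A3 (MCT4), an export form associated with glycolytic cells, was at 481 in HL60, 362 in THP1, 5.38 in K562 and 3.73 in SUDHL4. HL60 and THP1 both stood at least 67.4-fold above the other lines. SLC16A1 (MCT1) was at 384 in K562, 291 in HL60, 232 in SUDHL4 and 109 in THP1. Per kilobase, SLC16A1 made up 98.7% of the transporter total in K562 and 96.4% in SUDHL4, while SLC16A3 made up 74.6% in THP1 and 59.1% in HL60 (48.5% with exon-union lengths). The chaperones that carry these transporters to the membrane differed as well: BSG was between 444 and 883 in every line, and EMB was depleted in K562, with 1 read against levels of 152.0 to 894 elsewhere. SLC16A7 (MCT2) was also depleted in K562, with 0 reads against 7.53 to 27.2.

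**Figure D2:**
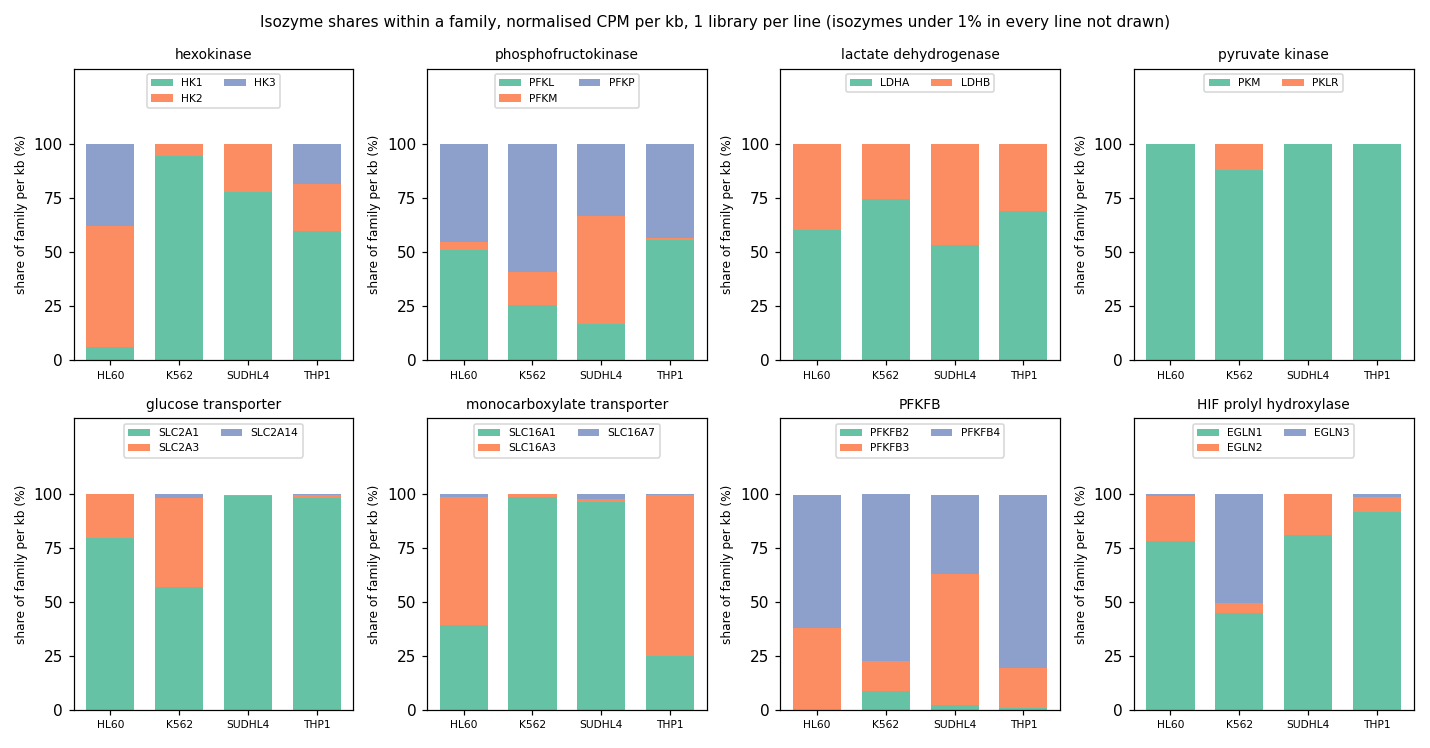
Share of each isozyme in its family (bar segments, percent of the summed normalised CPM per kilobase of the longest transcript) in each pure line. HL60 stands out by HK2 and HK3, SUDHL4 by PFKM and PFKFB3, K562 by PKLR, SLC2A3 and EGLN3, and HL60 with THP1 by SLC16A3.

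The pentose phosphate genes were led by HL60. TKT, the transketolase of the non-oxidative branch, was at 1655 in HL60, 674 in SUDHL4, 517 in K562 and 484 in THP1. TALDO1, the transaldolase, was at 987 in HL60, 553 in K562, 433 in THP1 and 248 in SUDHL4. PGD, an NADPH-producing dehydrogenase, was highest in K562 at 781, with 522 in HL60, 274 in SUDHL4 and 210.1 in THP1. HL60 was 2.46-fold above the next line for TKT and 1.79-fold for TALDO1. The 3 genes together took 0.286% of reads in HL60, 0.190% in K562, 0.120% in SUDHL4 and 0.114% in THP1. The transketolase-like gene TKTL1 was enriched in THP1, at 47.9 against 0.409 in K562 and 0 reads in HL60 and SUDHL4, and held 21.4% of the transketolase total per kilobase there. Of 12 measured genes on the wider pentose list, TKTL1 and RBKS were enriched, both in THP1, where 2.86% of all genes were, and none was depleted.

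The HIF alpha subunits are regulated mainly at the protein level, so their RNA does not measure HIF activity. HIF1A was at 145 in SUDHL4 against 44.8 in K562, 42.4 in THP1 and 27.7 in HL60, and SUDHL4 was 3.23-fold above the next line. EPAS1, which encodes HIF-2 alpha, was at 15.6 in THP1 (14.2 to 17.0) and 14.5 in K562 (13.3 to 15.8), with 1 read in HL60 and 0 reads in SUDHL4. The intervals of THP1 and K562 overlap. EGLN3, an oxygen-sensing prolyl hydroxylase that is itself a HIF target (chromosome 14, 33924231 to 34462774, minus strand), was at 41.5 in K562 (39.4 to 43.7), 0.901 in THP1, 0.218 in HL60 and 0 reads in SUDHL4. K562 was 46.1-fold above THP1 and at least 323-fold above SUDHL4, taking 3 reads as the limit in that library. EGLN1, the main hydroxylase, was at 133 in THP1, 91.2 in K562, 47.7 in HL60 and 30.5 in SUDHL4. EGLN3 made up 50.6% of the hydroxylase total per kilobase of the longest transcript in K562 but 29.7% with exon-union lengths, and at most 1.55% in any other line.

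Among the 8 listed hypoxia targets, K562 was the highest line for 6 and SUDHL4 the lowest for 5. These counts take in ANKRD37, CA9 and ADM, which were under 5 normalised CPM in every pure line. The same counts over all genes are not given here. Under median-ratio scaling K562 was highest for 5, since BNIP3 was then highest in THP1. VEGFA, the angiogenic growth factor, was at 66.1 in K562, 36.4 in HL60, 17.3 in THP1 and 16.4 in SUDHL4. Its intervals in THP1 (15.9 to 18.7) and SUDHL4 (14.9 to 17.9) overlap. BNIP3, a mitophagy receptor, was at 234 in K562, 199 in THP1, 96.7 in HL60 and 65.7 in SUDHL4. Its relative BNIP3L was at 179 in K562, 94.8 in SUDHL4, 85.9 in THP1 and 39.97 in HL60, and exceeded BNIP3 in SUDHL4 alone (55.1% of the pair per kilobase). BNIP3L is also known for clearing mitochondria from maturing red cells. P4HA1, a collagen prolyl hydroxylase, was at 245 in K562, 176 in HL60, 119 in THP1 and 67.1 in SUDHL4.

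NDRG1, a stress- and differentiation-responsive gene, was highest in THP1 rather than in K562. It was at 520 in THP1, 109.9 in HL60, 9.05 in K562 and 4.35 in SUDHL4, so THP1 was 4.73-fold above HL60 and 119-fold above SUDHL4. The other 3 members of the list were low in every line, and these were also the only 3 of the 40 genes under 5 normalised CPM in all 4 pure lines. ANKRD37 reached 4.42 in K562 (3.74 to 5.15) with 0.932 to 1.63 elsewhere, CA9 reached 1.76 in K562 (1.34 to 2.24) with 0 reads in THP1, and ADM reached 3.07 in HL60 (2.46 to 3.75) with 0 reads in SUDHL4. CA9, a surface carbonic anhydrase, is among the most strongly induced HIF targets in many cell types.

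The wider list of hypoxia targets showed no single order either. Of 38 measured genes, 5 were enriched (2 in HL60, 2 in THP1 and 1 in K562) and 6 depleted (4 of them in SUDHL4), against 8.06% and 3.59% of all genes, and 1.51% depleted in SUDHL4. BHLHE40, a transcriptional repressor, was enriched in K562 at 161 and depleted in SUDHL4 at 1 read. AK4, a mitochondrial adenylate kinase, was at 57.6 to 68.7 in the other lines and at 2 reads in SUDHL4. TMEM45A was enriched in THP1 at 122 against at most 4.31. CXCR4, a chemokine receptor, was enriched in HL60 at 163 and depleted in K562 at 5 reads. Over the 6 wider pathway lists, 102 of 120 genes were measured, 14 were enriched and 11 depleted, where 8.06% and 3.59% of all genes were. Among genes with at least 5 normalised CPM in a line, 14 of 80 listed genes were enriched, where 14.2% of all 11717 were. The number of listed genes with at least 5 in 3 lines is not given here, so the depleted ones have no such share. LDHD, a D-lactate dehydrogenase, was enriched in THP1 (6.31 against at most 0.24). The genes called but outside the 4 per list with the largest margins were PFKFB2, MINPP1, SLC2A14, PLOD2, CITED2, PYGL, NAMPT and TFRC. Of these PFKFB2, an isozyme of the PFKFB family, was enriched in K562 at 20.9 against at most 2.88. On the transport list SLC2A9, a urate and glucose carrier, was enriched in THP1 (51.4 against at most 0.955), and the fructose carrier SLC2A5 was depleted in K562 (0 reads against 20.5 to 215).

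Promoter sequence was examined for the core of the HIF response element, because K562 was the highest line for 15 members. RefSeq promoters (GRCh38.p14, from 250 bases before to 50 bases after each start) matched 35 of the 40 genes, with 62 starts in all. The genes without a match were SLC16A1, SLC2A3, VEGFA, BNIP3L and NDRG1. The motif ACGTG was searched on both strands (CACGT on the other), so that the palindrome CACGTG, which is also an E-box, counts in both directions. It occurred in 24 of 62 member promoters (38.7%) and in 21.4% of all 35116 promoters. By gene, 20 of 35 members had it at one or more starts, against 24.9% of 27305 genes. The members had 62 starts for 35 genes and all genes 35116 for 27305, so the count by gene favours the members. Some windows of the same gene also overlap, as for HK1 and PFKM. Because the list was drawn up from glycolysis and hypoxia-response genes, no conclusion is drawn from its higher share. GCGTG occurred in 40.3% of member promoters and 36.5% of all. Among matched members highest in K562, 7 of 11 genes had ACGTG, and among the others 13 of 24, so the motif was found in both sets. Counted by promoter, the motif was in 7 of 18 and in 17 of 44, which are nearly equal shares. The EGLN3 window had neither motif, which says only that these letters are absent there.

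The 250 bases before the start are shown for 3 members highest in K562 at the deposited scaling, picked after the matches were seen. LDHA had the most ACGTG matches of any member window (5, with 2 palindromes), ALDOC had 3 with 1 palindrome, and the 2 of BNIP3 are a single palindrome. They lie at LDHA (chr11:18394313-18394562, plus strand), ALDOC (chr17:28576896-28577145, minus strand) and BNIP3 (chr10:131981924-131982173, minus strand). Capitals mark ACGTG or GCGTG on either strand.
LDHA: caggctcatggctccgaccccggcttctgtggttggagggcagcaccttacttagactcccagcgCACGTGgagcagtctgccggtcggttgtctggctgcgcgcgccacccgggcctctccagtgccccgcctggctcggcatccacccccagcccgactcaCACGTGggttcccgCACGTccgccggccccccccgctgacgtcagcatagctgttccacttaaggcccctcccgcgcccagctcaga
ALDOC: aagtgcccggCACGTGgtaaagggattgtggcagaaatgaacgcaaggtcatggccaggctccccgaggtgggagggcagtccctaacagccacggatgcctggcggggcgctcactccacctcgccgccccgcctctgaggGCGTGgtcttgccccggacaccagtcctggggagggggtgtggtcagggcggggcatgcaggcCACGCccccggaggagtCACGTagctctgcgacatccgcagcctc
BNIP3: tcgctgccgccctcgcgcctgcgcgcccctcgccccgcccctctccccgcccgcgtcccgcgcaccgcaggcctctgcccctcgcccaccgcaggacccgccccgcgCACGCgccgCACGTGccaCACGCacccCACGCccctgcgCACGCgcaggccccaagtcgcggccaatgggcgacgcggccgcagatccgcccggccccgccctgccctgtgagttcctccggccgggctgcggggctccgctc

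The mixtures ask whether these genes read out in proportion to the lines. The contribution of each line was estimated by non-negative least squares from 100 signature genes per line that included none of the members or listed genes, and a mixture's expected level is the sum of the pure levels times these contributions. A contribution is one of RNA, so that fewer cells of a line and less RNA per cell cannot be told apart. By this estimate K562 gave 53.0% of mixture 5, 52.7% of mixture 6, 39.4% of mixture 3, 22.4% of mixture 1, 19.97% of mixture 2 and 0.0150% of mixture 4. SUDHL4 gave 58.2% of mixture 4 and 0% of mixture 3, and HL60 gave 49.1% of mixture 2 and 0.381% of mixture 5.

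Of the 3 genes enriched in K562, HK1 and SLC2A3 had the order of these K562 shares over the mixtures, and EGLN3 departed from it in 1 place. HK1 was at 651 in mixture 5, 569 in mixture 6, 477 in mixture 3, 362 in mixture 1, 236 in mixture 2 and 137 in mixture 4, where 683, 677, 465, 336, 268 and 146 were expected. The level left in mixture 4, with almost no K562, was close to that expected from SUDHL4 and THP1. SLC2A3 was at 119.7 in mixture 5, 117 in mixture 6, 98.1 in mixture 3, 61.4 in mixture 1, 50.4 in mixture 2 and 5.23 in mixture 4, where 136.9, 138, 102, 65.6, 64.5 and 4.85 were expected. EGLN3, in the same order of mixtures, was at 23.1, 22.5, 12.9, 7.24, 7.66 and 0.855, where 21.6, 21.5, 15.1, 9.26, 8.17 and 0.299 were expected. Mixture 2 thus exceeded mixture 1, and the low level in mixture 4 was 2.86 times that expected. PFKM was highest in mixture 4 (155, expected 150.1), then at 76.4 in mixture 1, 51.6 in mixture 5, 49.4 in mixture 6, 30.2 in mixture 2 and 18.7 in mixture 3, which is without SUDHL4 by the estimate. NDRG1 varied little, with 178, 152, 183, 153, 169 and 134.9 in mixtures 1 to 6. PDK3, low in K562, was at 17.96 in mixture 4, 13.5 in mixture 1, 12.65 in mixture 2, 10.09 in mixture 3, 8.08 in mixture 5 and 7.62 in mixture 6. The K562-rich mixtures 5 and 6 were the lowest.

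The isozymes of the families with a different lead between lines were spread over the mixtures as follows, each in the order of mixtures 1 to 6. HK2 stayed between 61.3 and 83.9, with 73.2, 73.4, 83.9, 69.5, 61.3 and 81.4. HK3 was at 16.8, 25.9, 13.7, 6.71, 5.26 and 6.61, highest in the HL60-rich mixture 2. PFKL was at 255, 294, 199, 174, 206 and 188.

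PFKP, even over the lines, was at 149.7, 134, 109, 120.2, 134 and 134. SLC16A3, the lactate exporter high in HL60 and THP1, was at 235, 384, 187, 140.5, 151 and 140.2, where 309 was expected in mixture 2. SLC16A1 was at 208, 208, 244, 205, 214 and 246. Only mixtures 1 and 2 had more SLC16A3 than SLC16A1. The mitophagy receptor BNIP3 was at 152, 144, 151, 131, 190.02 and 197. BNIP3L was at 86.0, 86.2, 99.7, 98.0, 133 and 144. PFKFB3 was highest in mixture 4, at 28.9, 19.9, 19.7, 38.3, 21.6 and 24.98. PFKFB4 was at 47.1, 40.8, 55.2, 29.02, 60.8 and 63.6, lowest in mixture 4. The kinase PDK1 was at 46.5, 46.6, 52.2, 58.1, 53.5 and 61.1, and PDK2 at 13.2, 9.17, 6.998, 26.2, 14.1 and 10.4. EGLN1 was at 79.0, 83.1, 94.6, 84.7, 107 and 97.2.

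**Figure D3:**
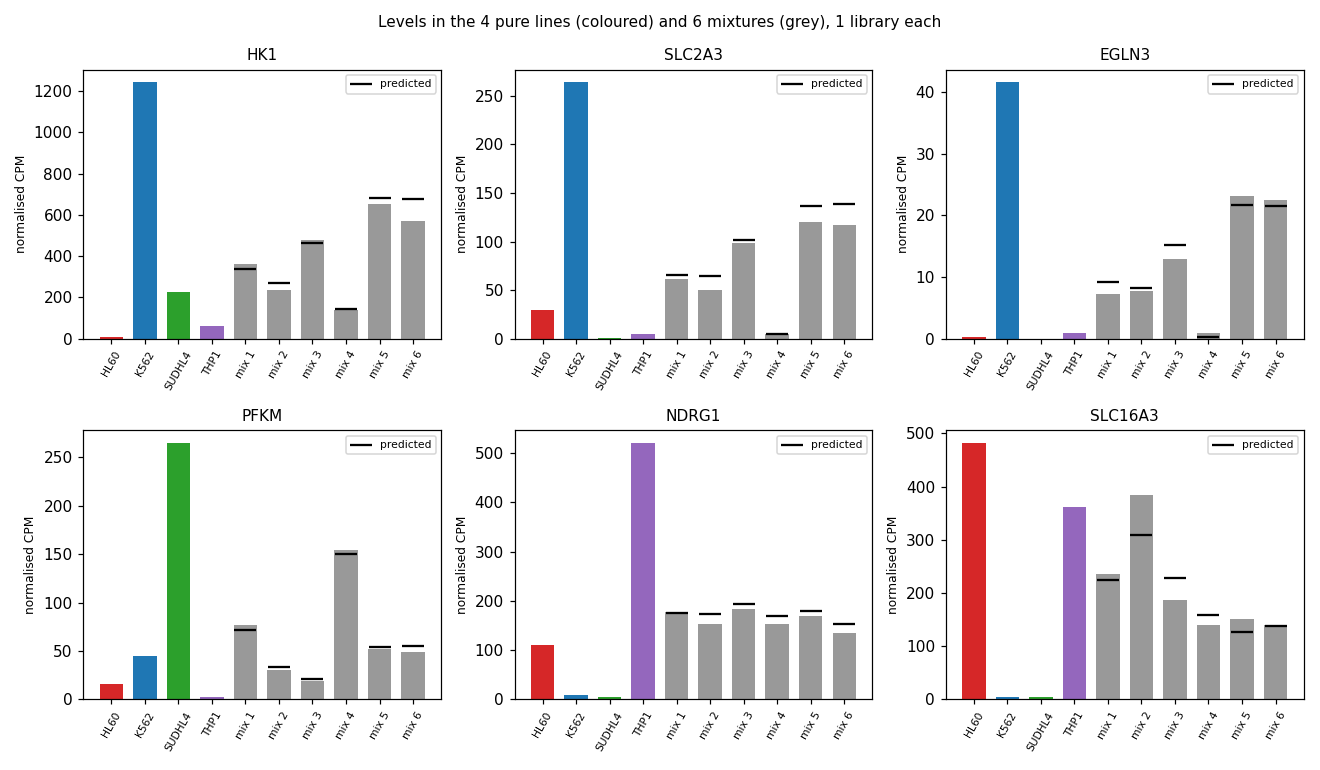
Level in normalised CPM (bars) of 6 genes in the 4 pure lines and 6 mixtures, 1 library each, with the level expected from the estimated RNA contributions as a black dash for each mixture. HK1, SLC2A3 and EGLN3 are high in mixtures 3, 5 and 6 and low in mixture 4, and PFKM is highest in mixture 4.

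A level counted as off the expected profile if it lay 1 or more log2 units, on the log2(value + 1) scale, from the level expected and 1 of the 2 reached 5. None of the 240 pairs of member and mixture met this rule, against 0.223% of the pairs over all genes and 0.357% over genes with at least 5 in a pure line. Over mixtures 1 to 6 the shares of all genes off profile were 0.0534%, 0.617%, 0.0728%, 0.107%, 0.359% and 0.126%, and 0.869% were off in at least 1 mixture. At a difference of 0.5, 1 pair of the members was off, against 3.14% of all pairs (5.43% over genes with at least 5): HIF1A in mixture 2 was at 26.9 where 40.3 was expected, a difference of −0.57. HIF1A there was also slightly below its lowest pure level, 27.7 in HL60. The median size of the difference over the 28 members with at least 100 normalised CPM in a pure line was lowest in mixture 1 (0.07) and highest in mixture 2 (0.14). Over all 3420 genes at that level it was lowest in mixture 3 (0.07) and highest in mixture 2 (0.24). Mixture 2 was thus the least well predicted library for members and for other genes alike.

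**Figure D4:**
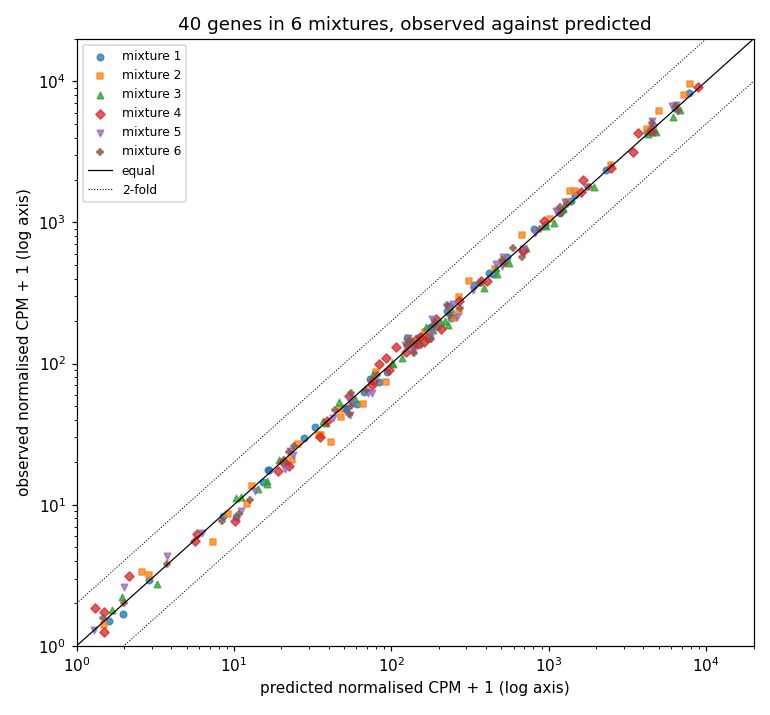
Observed against expected level (normalised CPM + 1, both axes log) for the 40 genes in each of the 6 mixtures, with lines at equality and at 2-fold. All points whose level is at least 5 lie within the 2-fold lines.

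The HK1 share of hexokinase per kilobase was 92.9% in mixture 5, 89.7% in mixture 6, 86.3% in mixture 3, 83.3% in mixture 1, 73.6% in mixture 2 and 70.6% in mixture 4. The LDHA to LDHB ratio of levels was highest in mixtures 5 (3.43) and 3 (3.40) and lowest in the SUDHL4-rich mixture 4 (2.18). Over 39 isozymes with at least 1% of their family in some library, observed and expected shares differed by a median of 0.797 percentage points, and 224 of 234 pairs lay within 5 points. The widest gap was 9.80 points, for SLC16A3 in mixture 2, which had 62.2% of the transporter total where 52.4% was expected.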

How the data were processed

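Bulk RNA-seq of 10 libraries was used. Per the submitters' processing notes, HISAT2, featureCounts, Cell Ranger ARC 2.0.0 and build hg19 were used in the series; annotation, strand setting and scaling method were not given in the sources used here. In the table the authors deposited, signal values on a CPM-like scale cover 20591 genes. Above 0, a value is its reads plus 0.5, times a step that is constant within a library; 100% of recovered reads were whole (tolerance 0.01) in 10 of 10 libraries. The design had assumed plain CPM.

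Levels were compared on log2(value + 1) in Python 3.11.15 (scipy 1.17.1), with rules given where used. With 1 library a group no test was run. Transcript lengths and gene positions came by Ensembl ID from GENCODE 29 (GRCh38), not the authors' build. Genes named were the 40 members, the isozymes of families whose lead differed between lines, and up to 4 genes per wider list, enriched or depleted, by largest margin. BSG and SLC2A14 were chosen after their values were seen, as was SLC16A3 for the plot of levels by library. The members and lists were chosen with earlier results of these data known. Read recovery, calls and contributions were tested on simulated data. Alternatives covered the pseudocount, scaling, minimum, margin, length and signature size.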

Additional observations from a re-analysis of the deposited data

How the results depend on the processing

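Every group has 1 library, so no alternative leaves out a replicate. No paired analysis was possible because no group has more than 1 library. The 5 enriched members stayed 5 under each pseudocount, scaling and minimum, became 10 at a margin of 1 and 2 at a margin of 3. The 3 depleted members became 1 with a pseudocount of 5, with housekeeping scaling or with a minimum of 20, 9 at a margin of 1 and 0 at a margin of 3. The listed genes called either way went from 22 to 44 at a margin of 1, and the pairs off profile from 0 to 1 at a difference of 0.5. The median differences kept their sign in every setting. With plain CPM, housekeeping and median-ratio scaling in turn they were 0.28, 0.24 and 0.35 in HL60, 0.51, 0.39 and 0.30 in K562 and −0.25, −0.15 and −0.11 in THP1, and −0.59 in SUDHL4 with housekeeping scaling. K562 had 0.42 with a pseudocount of 5. Over all measured members, and over those at 20 or more, the medians were 0.44 and 0.33 in K562, −0.55 and −0.53 in SUDHL4 and −0.36 and −0.36 in THP1. Families whose lead isozyme differed between lines numbered 7 of 15 (5 without length), and 5 of them did so under all 3 length measures. The median of all 11717 genes in HL60 moved from 0.08 to −0.11 with housekeeping scaling. Scaling moves levels between libraries but no ratio within one. The level that 3 reads give is 0.0955 in mixture 1 and 0.139 in mixture 2, the extremes, which limits ADM, CA9, EPAS1, EGLN3 and HK3 in their low lines.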
